A study of Mus musculus with 16 samples.

Results

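Glycolysis and the transcriptional response to low oxygen were followed through 35 genes in glomeruli, the blood filters of the kidney, from mouse embryos late in gestation (stage E18.5). The members were given by name: the enzymes from hexokinase to lactate dehydrogenase, the transporters and regulators of glucose use, the subunits and hydroxylases of hypoxia-inducible factor (HIF), and other genes that HIF induces. A transcript cluster holds the probes that the array design groups at a locus, about a gene. Each member was represented by the transcript cluster with its symbol or an older synonym, and by the cluster of highest mean where there were several. Of the 35 genes, 33 were found this way among 93623 clusters, and 31 of the 33 were no dimmer than the median cluster, whose mean was 6.04. The exceptions were Gapdh and Car9. Gpi1 and Eno1 had no cluster with a single symbol and were read from the second deposited table, which holds 375483 probe sets of about an exon each. The role lists held 11 measured enzymes of 13, 6 transporters and flux regulators, 2 HIF subunits, 2 prolyl hydroxylases and 12 other induced genes.

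The groups were 4 wild-type and 4 wt1(+KTS) mutant embryos, which the sample titles call Frasier, on a mixed background of C57Bl6 and DBA2. WT1 is a zinc finger protein of podocytes, and its +KTS form carries an insert of the amino acids KTS; in Frasier syndrome that form is reduced. The labels give neither the zygosity of the mutants nor their litters, and glomeruli were taken with magnetic beads after bead perfusion of each embryo. The 8 exon arrays were each deposited as 2 summaries, which makes 16 samples, and n is 4 per genotype. Wild-type replicate 4 was the array least like the rest (r = 0.869 to 0.918 with the other 7 arrays, over clusters) and had the lowest value among the wild types in 24 of the 33 members. Sample codes end in a letter that the genotypes never share, so the genotype and whatever the letter marks cannot be told apart. All 7 measured podocyte markers, such as Nphs1 and Podxl, were brighter than the median cluster, and so were markers of proximal tubule and of loop and collecting duct, such as Lrp2 and Slc12a1.

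Glycolysis splits glucose to pyruvate in the cytoplasm and yields ATP without oxygen. When oxygen is plentiful, the prolyl hydroxylases EGLN1 and EGLN3 mark the HIF alpha subunits HIF1A and EPAS1 for destruction. When it is scarce, the subunits persist, pair with ARNT and bind short DNA elements near genes for glucose uptake, glycolytic enzymes, mitophagy, collagen hydroxylation and vascular tone. The alpha subunits are controlled mainly at the level of protein, so their transcripts do not report HIF activity. In the kidney EPAS1 is known mainly from endothelial and interstitial cells and HIF1A from epithelium.

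The core of the HIF element is ACGTG or GCGTG, and the promoters shown here let a reader see where those letters stand in the genes. For each role list the member of smallest p with an entry in the RefSeq promoter table is given. Each sequence is the 250 bases before the annotated start, in the direction of the gene, on GRCm38.p6, a build that served for sequence only since the arrays were annotated on mm9. Capitals mark every ACGTG or GCGTG and their reverse complements CACGT and CACGC, with overlapping matches run together. Pgk1 lies at chrX:106186850-106187099 on the plus strand, Slc2a1 at chr4:119108495-119108744 on the plus strand, Hif1a at chr12:73907617-73907866 on the plus strand, Egln3 at chr12:54203875-54204124 on the minus strand, and Adm at chr7:110627407-110627656 on the plus strand.
Pgk1: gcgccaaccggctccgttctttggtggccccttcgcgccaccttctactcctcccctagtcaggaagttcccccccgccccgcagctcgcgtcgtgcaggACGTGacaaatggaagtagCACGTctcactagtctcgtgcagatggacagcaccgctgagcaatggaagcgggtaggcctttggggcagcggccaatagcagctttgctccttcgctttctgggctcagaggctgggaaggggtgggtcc
Slc2a1: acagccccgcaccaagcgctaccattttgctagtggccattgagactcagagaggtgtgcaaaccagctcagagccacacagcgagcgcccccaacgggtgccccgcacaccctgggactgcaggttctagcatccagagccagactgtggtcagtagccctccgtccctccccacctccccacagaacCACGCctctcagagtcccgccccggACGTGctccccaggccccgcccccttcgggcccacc
Hif1a: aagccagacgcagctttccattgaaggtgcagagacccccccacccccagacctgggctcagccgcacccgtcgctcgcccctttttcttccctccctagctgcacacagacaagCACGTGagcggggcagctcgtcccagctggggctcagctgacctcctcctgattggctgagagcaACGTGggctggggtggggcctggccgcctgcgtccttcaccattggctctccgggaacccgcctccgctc
Egln3: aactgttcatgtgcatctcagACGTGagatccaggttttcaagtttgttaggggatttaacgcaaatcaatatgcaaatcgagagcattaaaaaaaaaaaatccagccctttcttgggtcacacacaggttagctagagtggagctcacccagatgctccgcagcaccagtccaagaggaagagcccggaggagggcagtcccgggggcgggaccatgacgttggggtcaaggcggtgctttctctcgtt
Adm: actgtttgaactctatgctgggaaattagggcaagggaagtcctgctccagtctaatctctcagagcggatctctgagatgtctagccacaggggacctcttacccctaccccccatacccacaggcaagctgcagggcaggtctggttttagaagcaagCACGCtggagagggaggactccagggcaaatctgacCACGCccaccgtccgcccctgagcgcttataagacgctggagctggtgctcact
In Pgk1 the capitals begin 150 and 131 bases before the start, a forward and a reversed core. In Slc2a1 they begin at 61 and 36 bases, in Hif1a at 135 and 70, in Egln3 at 229 and in Adm at 90 and 54. The longer run in Hif1a is the palindrome CACGTG, which holds a core on each strand. Of the 31 members with an entry, 29 (93.5%) held at least 1 core in the 250 bases before at least 1 of their annotated starts. Gpi1 and Tpi1 held none. Over all 27025 genes in the table, counted the same way, the share was 41.5%. A gene can have several entries, and by single entries the shares were 79.5% of 44 for the members and 38.6% of 32851 for the table. The members' promoters were also richer in G and C, with a median of 63.4% against 52.4% over all promoters, and the cores hold G and C themselves. CACGTG was present in 4 members (12.9%) and in 6.86% of all genes. These matches are descriptions of letters in a window and not of sites in use, and genes without a match can carry elements elsewhere.

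Among the 33 members, the glycolytic enzyme Pgk1 was the single gene that fell in the mutants past the threshold, an adjusted p under 0.05 over all clusters (limma, Benjamini-Hochberg), and none rose. Of all clusters, 0.827% were called, 0.490% lower and 0.336% higher, and of those with 1 symbol 1.42%, and 1 member of 33 is too few to read against those shares. Of the members, 22 had a lower and 11 a higher mean in the mutants. Their median difference (mutant minus wild type) was −0.13 log2 units, with a range of −0.78 to 0.37. The upper end was Pkm, by a cluster whose neighbours in the array design lie on another chromosome than the gene. Over all clusters the median was −0.032 and 55.4% were lower. Over the clusters with 1 symbol the median was 0.028 and 44.3% were lower. In 5 members every mutant array lay below every wild-type array: Pgk1, Pgam1, Epas1, Adm and Ankrd37. That is 15.2% of the members, beside 9.54% of all clusters that separated either way, and beside 4.74% of all clusters and 5.56% of the clusters with 1 symbol that separated in that direction. No member separated in the other direction, as 4.79% of all clusters and 11.2% of those with 1 symbol did. The count moved with wild-type replicate 4: without it, an alternative chosen after seeing the data, 12 members (36.4%) lay wholly lower in the mutants and none higher, beside 7.42% and 6.83% of all clusters. The 7 added were Ldha, Slc2a1, Egln1, Egln3, Bnip3l, Ero1l and P4ha2, while the number of called members was 0. Leaving out an array can only keep or raise such a count. The array left out was the lowest wild type in 24 of the 33 members, so the larger count is no support for a fall. The share among clusters with 1 symbol was not computed for this alternative. At an unadjusted p under 0.05 there were 6 members of 33, beside 14.3% of all clusters.

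**Figure D1:**
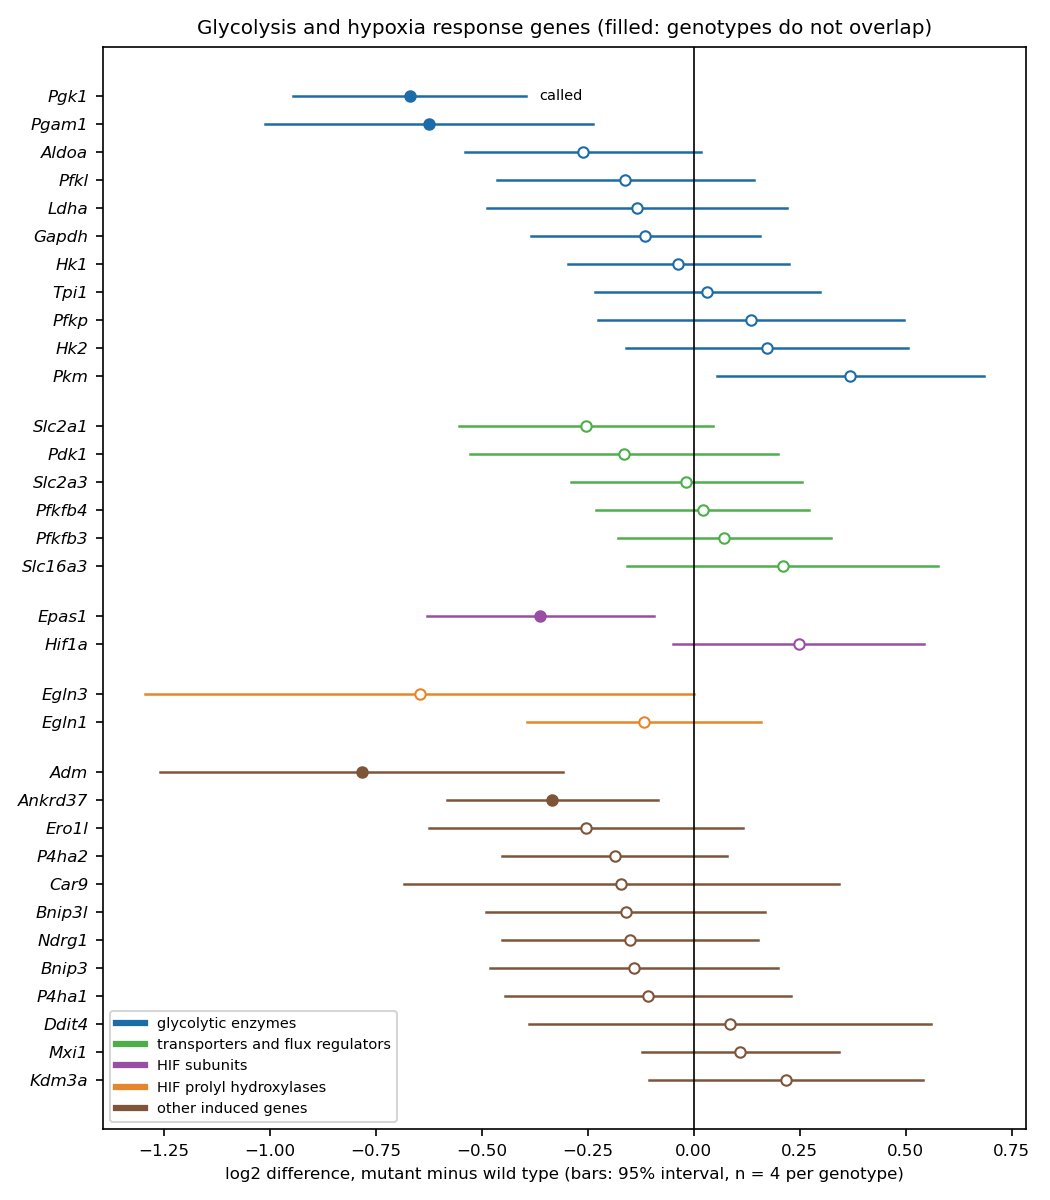
Difference of the log2 signal between mutant and wild type (horizontal axis, mutant minus wild type) for the 33 members in the gene-level table, by role list; points are differences of means and bars their 95% intervals, n = 4 per genotype. Filled points, Pgk1, Pgam1, Epas1, Adm and Ankrd37, have no overlap between the genotypes, and all 5 lie below 0.

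Pgk1, on the X chromosome, encodes phosphoglycerate kinase, which makes the first ATP of the pathway. Its log2 signal was 6.53, 6.52, 6.53 and 6.38 in wild-type replicates 1 to 4 and 5.71, 5.75, 6.09 and 5.72 in mutant replicates 1 to 4. This is a dim signal: its mean of 6.15 lay just above the median cluster's 6.04, and its mutant mean of 5.82 below it. The genotypes did not overlap. The mutants were lower by 1.59-fold, a difference of −0.67 ± 0.12 log2 units (SE, n = 4) with a 95% interval of −0.95 to −0.40 and an adjusted p of 0.0446. The adjusted p lies close to the threshold and was under 0.05 in 6 of 19 alternatives. Of the 6, 1 took the cluster at the gene's own place, which for Pgk1 repeats the reported cluster and fit. Leaving out dim clusters and keeping only clusters with 1 symbol passed with fewer tests. With an array left out in turn it passed in 1 of 8 fits, without mutant replicate 3. Leaving out any of the other 7 arrays gave adjusted p-values from 0.0530 (without wild-type replicate 4, at a difference of −0.71) to 0.138. A second Pgk1 cluster, whose neighbours in the array design lie on chromosome 12, differed by 0.06. Its means were 5.77 in the wild types and 5.83 in the mutants. Pgk1 had no probe set of a single symbol to set beside these clusters. In RNA from whole glomeruli, fewer cells of a type and less RNA per cell cannot be told apart.

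Pgam1, phosphoglycerate mutase, acts on the product of that step. Its wild-type values were 7.65, 7.40, 7.38 and 7.48, and its mutant values 7.34, 6.81, 6.70 and 6.57. The highest mutant lay just under the lowest wild type. The difference was −0.62 ± 0.17 (95% interval −1.01 to −0.24, adjusted p = 0.148) and was not called. It did not hold its size in other summaries: the 1 Pgam1 probe set differed by −0.26 with overlapping groups (adjusted p = 0.549), and the mean of its 2 clusters by −0.37. Aldoa, aldolase A, splits the phosphorylated sugar. It read 7.63, 7.40, 7.30 and 7.59 in the wild types and 7.19, 7.33, 7.29 and 7.05 in the mutants. The groups overlapped in a narrow band, and the difference was −0.26 ± 0.12 (adjusted p = 0.381).

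For Pkm, pyruvate kinase, the brightest cluster and the cluster at the gene's own place gave opposite signs. The brightest sits among design neighbours on chromosome 5, while the gene is on chromosome 9, and its values equal those of 1 probe set. It read 6.80, 6.94, 6.97 and 6.65 in the wild types and 7.26, 7.48, 7.15 and 6.96 in the mutants, a difference of 0.37 ± 0.14 (adjusted p = 0.279). The cluster among chromosome 9 neighbours read 7.49, 7.27, 7.23 and 6.84 against 6.44, 6.91, 6.91 and 6.72, a difference of −0.46 with a 95% interval of −0.84 to −0.08 (adjusted p = 0.264). The mean of the 4 Pkm probe sets differed by 0.0024, so no direction can be given for Pkm. Gapdh, the dehydrogenase often used as a reference gene, has the same difficulty: its cluster by the rule lies among chromosome 3 neighbours and differed by −0.11, although the gene is on chromosome 6. A cluster among chromosome 6 neighbours that the annotation shares between Gapdh and a pseudogene averaged 7.50 ± 0.40 (SD, n = 4) in the wild types and 6.97 ± 0.088 in the mutants. Its difference of −0.53 had an adjusted p of 0.245 and was not counted. Signals of such copies could not be separated here, because probe sequences were not used.

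In the other 6 enzymes the groups overlapped and none was called. Pfkl, the liver form of phosphofructokinase, differed by −0.16 and Ldha, which turns pyruvate to lactate, by −0.13. Hk1 and Tpi1, hexokinase 1 and triosephosphate isomerase, differed by −0.04 and 0.03. Pfkp, the platelet form of phosphofructokinase, and Hk2, the hexokinase that HIF and insulin induce, were the higher ones at 0.13 and 0.17.

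**Figure D2:**
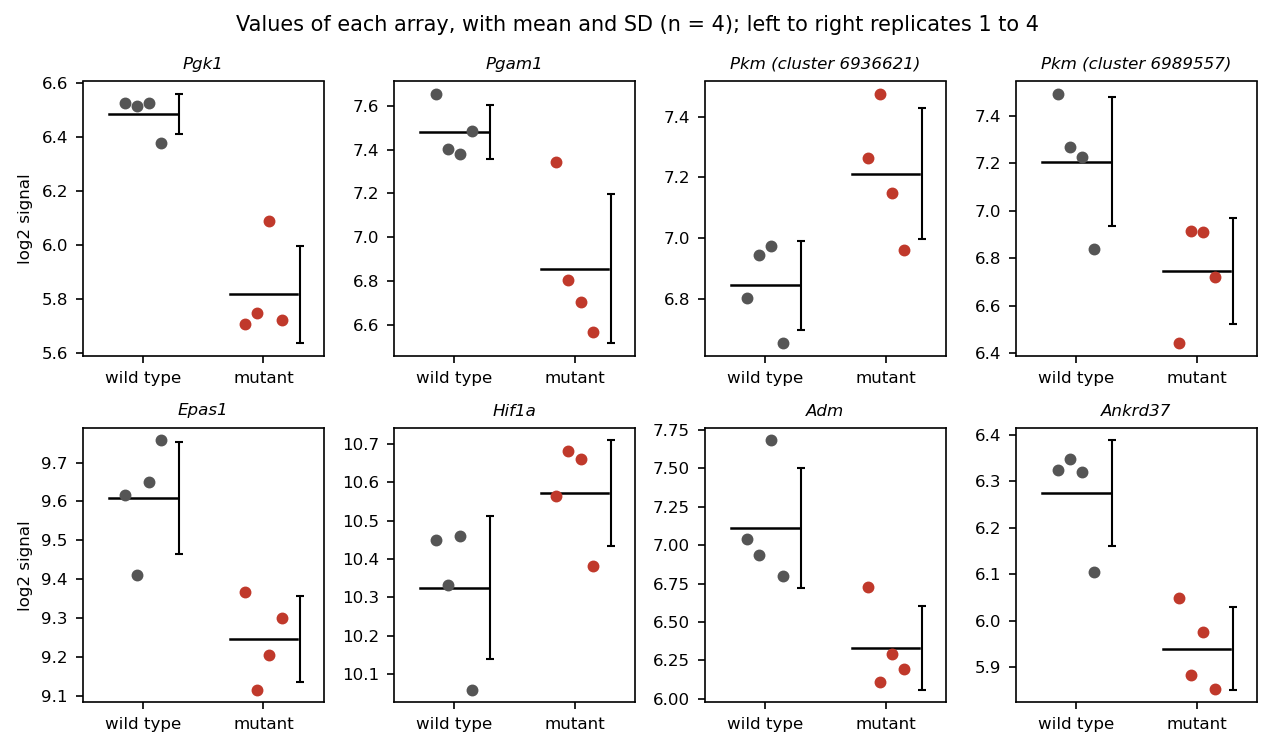
Log2 signal of each array (vertical axis) for 7 members, wild-type and mutant arrays side by side, with n = 4 per genotype, horizontal lines at the group means and bars of 1 SD to each side. The mutant points of Pgk1, Pgam1, Epas1, Adm and Ankrd37 all lie below the wild-type points, those of Hif1a overlap them, and the 2 Pkm clusters (numbered as in the array design) lean opposite ways.

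Gpi1 and Eno1 were read as the mean of their probe sets and tested among 18513 genes summarised the same way, of which 11.4% were called and 3.00% called lower. Eno1, enolase, read 7.41, 6.95, 7.15 and 6.76 in the wild types and 6.22, 6.22, 6.52 and 6.38 in the mutants. The groups did not overlap, and the mutants were lower by 1.66-fold (−0.73 ± 0.14, adjusted p = 0.0111). All 6 of its probe sets were lower, 3 of them past the threshold over all probe sets (1.21% of all probe sets were called lower), with the extreme at −1.01. Gpi1, glucose-6-phosphate isomerase, read 8.89, 8.80, 8.76 and 8.58 against 8.35, 8.46, 8.44 and 8.41. It too separated by genotype, at −0.34 ± 0.087 (adjusted p = 0.0330), and 8 of its 9 probe sets were lower with none called. Both were called on a scale on which 20.2% of genes separate by genotype.

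Glucose enters and lactate leaves through transporters, and PFKFB enzymes and PDK1 set how fast glucose is used and whether pyruvate enters the mitochondrion. None of the 6 members of this list was called or separated by genotype; 3 were lower and 3 higher, and their median difference was 0.0014. Slc2a1, the glucose transporter GLUT1, read 9.60, 9.37, 9.30 and 9.14 in the wild types and 9.08, 9.25, 9.15 and 8.92 in the mutants. The mutants were on average lower, but wild-type replicate 4 fell among them, and the difference of −0.25 ± 0.13 had an adjusted p of 0.429. Slc16a3, a lactate exporter, read 7.73, 7.15, 7.29 and 7.25 against 7.33, 7.75, 7.75 and 7.43, a difference of 0.21 (adjusted p = 0.604). Pdk1, the kinase that shuts pyruvate dehydrogenase, read 8.38, 8.13, 8.10 and 8.00 against 7.86, 8.21, 8.24 and 7.64. Its groups were interleaved (−0.16, adjusted p = 0.689). Pfkfb3, which makes the activator of phosphofructokinase, read 7.27, 6.99, 7.14 and 6.99 against 7.27, 7.13, 7.16 and 7.13 (0.07, adjusted p = 0.812). Slc2a3, the neuronal type glucose transporter, and Pfkfb4 differed by −0.02 and 0.02.

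The 2 HIF alpha subunits pointed in opposite directions, and neither was called. Epas1 read 9.62, 9.41, 9.65 and 9.76 in the wild types and 9.37, 9.11, 9.20 and 9.30 in the mutants. The groups did not overlap, by a narrow margin, and the difference was −0.36 ± 0.12 (95% interval −0.63 to −0.09, adjusted p = 0.216). All 21 Epas1 probe sets were lower, and their mean differed by −0.40 with an adjusted p of 0.0563, which also missed the threshold, and there the groups overlapped. Hif1a read 10.45, 10.33, 10.46 and 10.06 in the wild types and 10.56, 10.68, 10.66 and 10.38 in the mutants. Mutant replicate 4 lay among the wild types, and the difference was 0.25 ± 0.13 (95% interval −0.05 to 0.54, adjusted p = 0.437). Of its 19 probe sets 17 were higher. Of all genes, 38.4% were lower by the mean of their probe sets. Probe sets of a gene share the RNA of the same 8 arrays and are not replicates.

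Of the prolyl hydroxylases, Egln1, the main oxygen sensor of most tissues, read 8.56, 8.39, 8.42 and 8.15 in the wild types and 8.25, 8.34, 8.33 and 8.13 in the mutants. The difference was −0.12 ± 0.12 (adjusted p = 0.707). Egln3 is itself induced by HIF. Its brightest cluster lies among chromosome 15 neighbours and equals 1 probe set, although the gene is on chromosome 12, and read 9.84, 10.16, 9.80 and 9.00 against 8.39, 9.47, 9.33 and 9.03. Those groups overlapped, with wild-type replicate 4 at the level of the mutants (−0.65 ± 0.29, adjusted p = 0.352). The cluster among chromosome 12 neighbours, taken after the values were seen, read 9.09, 8.73, 8.81 and 8.68 against 8.43, 8.46, 8.45 and 8.22. There the genotypes did not overlap, and the difference was −0.43 (95% interval −0.72 to −0.15, adjusted p = 0.172). Its 18 probe sets were mixed, 8 lower and 10 higher. Only 1 of the 18 was called, at −1.39 (adjusted p = 0.0273), with wild-type values of 9.67, 9.47, 9.39 and 8.74 and mutant values of 7.60, 8.52, 8.06 and 7.52.

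**Figure D3:**
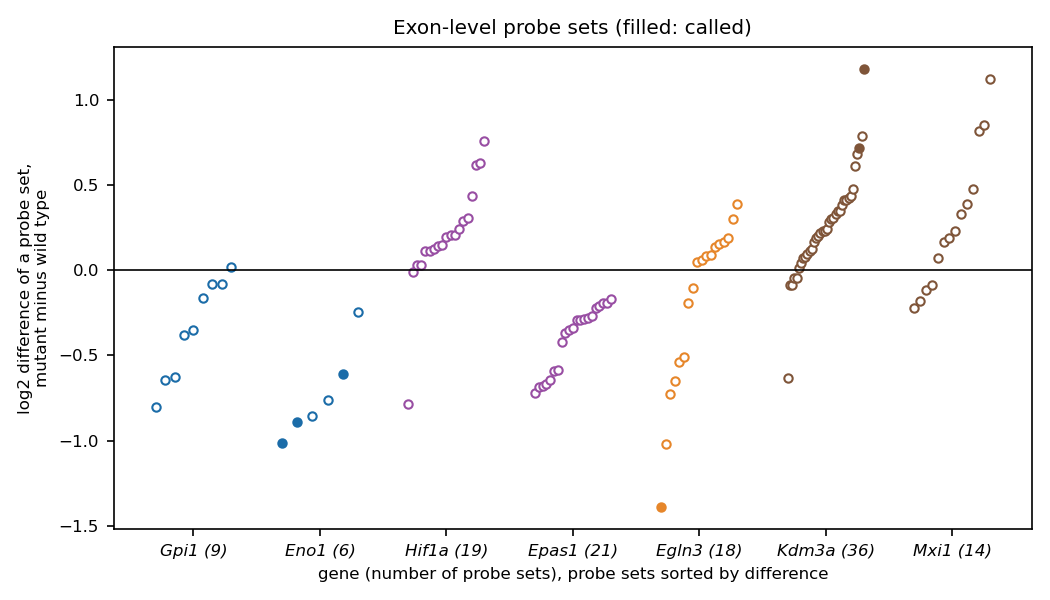
Differences of single probe sets (mutant minus wild type, log2, vertical axis) for 7 members, 1 point a probe set in order of its difference, with the number of probe sets beside each name. Filled points were called. Epas1 and Eno1 lie wholly below 0, Hif1a and Kdm3a mostly above it, and Egln3 spreads to both sides.

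Of the 12 other induced genes, 9 were lower and 3 higher, with a median of −0.16, and none was called. Adm encodes adrenomedullin, a vasodilator peptide. It read 7.04, 6.94, 7.68 and 6.80 in the wild types and 6.73, 6.11, 6.29 and 6.20 in the mutants. The groups did not overlap, although mutant replicate 1 came within a small step of the lowest wild type. The mutants were lower by 1.72-fold, −0.78 ± 0.21 with a 95% interval of −1.26 to −0.31, and the adjusted p was 0.141. Over the mean of its 2 probe sets the difference was −0.79 with an adjusted p of 0.0271, past the threshold. Ankrd37, a small ankyrin repeat protein known as a HIF1A target, read 6.32, 6.35, 6.32 and 6.11 against 6.05, 5.88, 5.98 and 5.85. It separated by genotype at −0.33 ± 0.11 (adjusted p = 0.220), and the mean of its 3 probe sets was called at −0.51 (adjusted p = 0.0257). By the mean of probe sets 11.4% of all genes were called, 3.00% lower, and the arrays are the same.

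P4ha2 and P4ha1 encode collagen prolyl hydroxylases. P4ha2 read 6.68, 6.62, 6.54 and 6.29 in the wild types and 6.29, 6.34, 6.37 and 6.39 in the mutants, where wild-type replicate 4 again lay at the mutants' level (−0.19, adjusted p = 0.519). Ero1l, listed as Ero1a in the newer annotation, oxidises proteins in the endoplasmic reticulum. It read 8.98, 8.87, 8.87 and 8.39 against 8.34, 8.76, 8.64 and 8.35 (−0.25, adjusted p = 0.527). Bnip3 and Bnip3l, which mark mitochondria for removal, differed by −0.14 and −0.16, and Ndrg1, a stress response gene, by −0.15. Car9, carbonic anhydrase 9, differed by −0.17 at a signal just under the table's median, and P4ha1 by −0.11.

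The 3 genes with higher means were Kdm3a, Mxi1 and Ddit4. Kdm3a, a histone demethylase, differed by 0.22, and 31 of its 36 probe sets were higher. By the mean of probe sets, 38.4% of all genes were lower. Of the Kdm3a probe sets 2 were called, at 1.18 and 0.72 (1.46% of all probe sets were called higher). Mxi1 opposes MYC and differed by 0.11 in its brighter cluster. A second Mxi1 cluster at the same place, singled out after its values were seen, equals 1 probe set and read 5.81, 5.58, 6.53 and 4.63 in the wild types and 6.69, 6.96, 6.75 and 6.63 in the mutants. The groups did not overlap there, but the wild types spread widely, and the difference of 1.12 had an adjusted p of 0.173. Ddit4, which restrains mTOR signalling, differed by 0.09.

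As lists, the enzymes can be set beside the other HIF targets, the 20 members that are neither enzymes nor HIF subunits. The enzymes had 1 of 11 called, 7 lower and 4 higher, 2 of 11 (18.2%) separated by genotype and a median of −0.11. The other targets had none of 20 called, 14 lower and 6 higher, 2 of 20 (10%) separated and a median of −0.15. Over all clusters 0.827% were called and 9.54% separated, 4.74% with the mutants lower, and the members that separated in both lists were all lower. These tallies leave out Gpi1 and Eno1, and they depend on the choice of cluster. Pkm and Gapdh among the enzymes and Egln3 among the other targets entered by clusters whose neighbours lie on another chromosome than the gene. The Pkm and Egln3 clusters at the gene's own place differed by −0.46 and −0.43, the genotypes overlapping for Pkm and not for Egln3. The mean over the 11 enzymes was 7.35 to 7.62 in the wild-type arrays and 7.27 to 7.43 in the mutants. The mean over the 20 other targets was 7.56 to 7.92 and 7.54 to 7.72. In both lists the groups overlapped, with wild-type replicate 4 the lowest wild type and replicate 1 the highest. Wild-type replicate 1 was the highest wild type in 17 of the 33 members, mutant replicate 4 the lowest mutant in 17 and mutant replicate 2 the highest mutant in 16. The list medians moved with single arrays: without wild-type replicate 1 the enzymes' median was −0.036 and without mutant replicate 1 it was −0.040. The other targets' median was −0.086 without wild-type replicate 1 and −0.074 without mutant replicate 4. Without wild-type replicate 4 the medians were −0.13 and −0.21. By the mean of probe sets the medians were −0.11 for the enzymes and −0.045 for the other targets, in the reverse order. Those enzymes included Gpi1 and Eno1 but not Gapdh or Pgk1. No test of the difference between the lists was made.

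**Figure D4:**
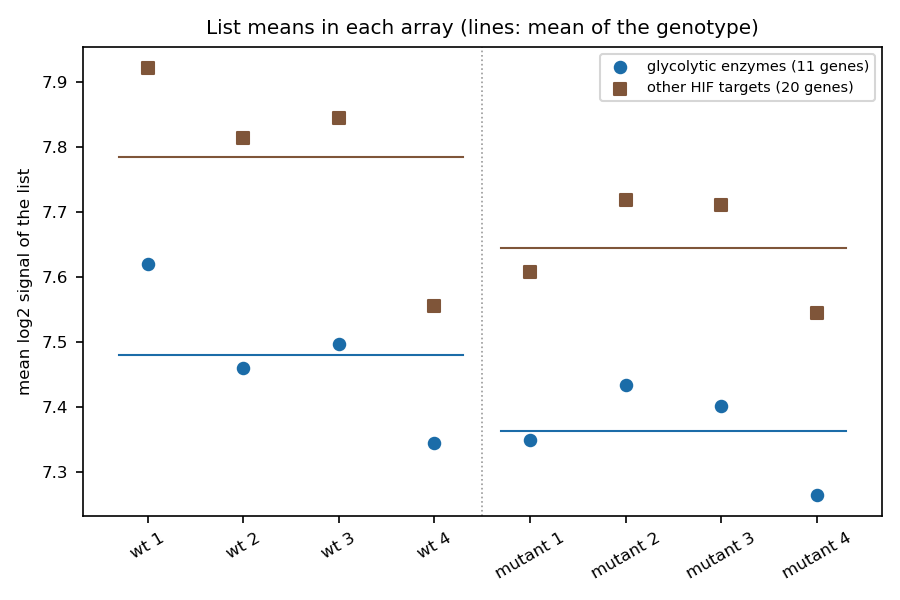
Mean log2 signal of each array (vertical axis) over the 11 glycolytic enzymes and over the 20 other HIF targets, by genotype, with n = 4 per genotype and horizontal lines at the group means. In both lists the wild-type and mutant arrays overlap, and wild-type replicate 4 is the lowest wild type.

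The probe sets give a second summary of the same arrays and not new evidence. There, 33 members had a probe set of a single symbol (Gapdh and Pgk1 had none), 414 in all, from 1 for Pgam1 and Car9 to 36 for Kdm3a. By the mean of probe sets, 4 members were called lower (Gpi1, Eno1, Adm and Ankrd37) and none higher, beside 3.00% of all genes called lower. Of the 33, 20 were lower and 13 higher, with a median of −0.069, while the median over all 18513 genes was 0.068. Genotypes did not overlap in 6 members, beside 20.2% of all genes. The mutants were lower in 5 of them (Gpi1, Eno1, Aldoa, Adm and Ankrd37) and higher in Mxi1 (0.29, adjusted p = 0.0923), while Epas1 and Pgam1 overlapped here. Of single probe sets, 7 of 414 (1.69%) were called, 5 lower and 2 higher, beside 2.67% of all, 1.21% lower and 1.46% higher. In the 31 members found in both tables the sign was the same in 29, and the widest gap between the summaries was 0.45, for Egln3.

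**Figure D5:**
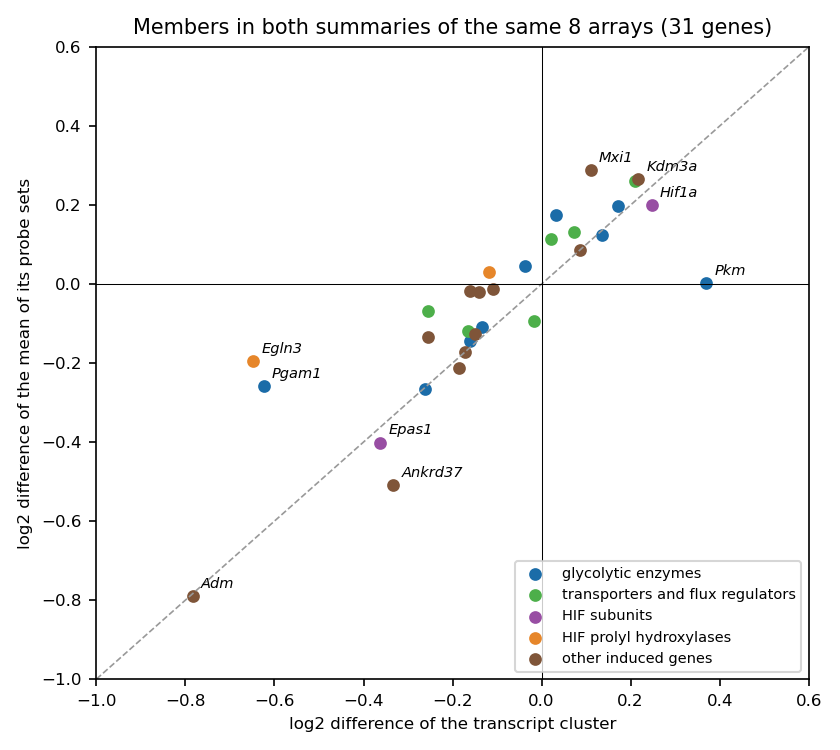
Mutant minus wild type in log2 units by transcript cluster (horizontal axis) and by the mean of probe sets (vertical axis) for the 31 members in both tables, with the line of equal values. Adm lies far to the lower left in both, and Egln3 and Pkm lie off the line.

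Genes around the pathway were taken from 3 further lists. Among other glycolytic isozymes and gluconeogenic enzymes, 15 of 17 were measured and none was called, 10 lower and 5 higher, with a median of −0.048. Aldoc, the brain form of aldolase, read 7.38, 7.29, 7.32 and 6.95 in the wild types and 6.74, 6.74, 6.56 and 6.21 in the mutants. It separated by genotype at −0.68 ± 0.16 but missed the threshold (adjusted p = 0.0966). Fbp1, the gluconeogenic fructose bisphosphatase of proximal tubule, differed by −0.56 (adjusted p = 0.397). Among genes of pyruvate entry into mitochondria, 9 of 11 were measured and 1 was called, Pdk4, which rose (0.336% of all clusters were called higher). Pdk4 is a pyruvate dehydrogenase kinase induced by fasting and glucocorticoids. It read 8.95, 9.01, 9.08 and 8.53 against 9.89, 10.28, 10.01 and 9.70. Every mutant lay above every wild type, by 2.11-fold (1.08 ± 0.17, adjusted p = 0.0226). Pdk3, a relative of Pdk4, was at 0.34 (adjusted p = 0.232).

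Among 25 measured of 28 other genes of oxygen sensing and HIF targets, none was called, 10 were lower and 15 higher, and the median was 0.052. Bhlhe40, a repressor that HIF induces, read 9.02, 8.77, 8.99 and 8.80 in the wild types and 9.56, 9.51, 9.47 and 9.40 in the mutants. The groups did not overlap, and the difference of 0.59 had an adjusted p of 0.050007, which missed the threshold. Vegfa, the endothelial growth factor that podocytes make, read 9.32, 9.11, 9.20 and 9.12 against 8.80, 8.78, 8.72 and 8.59. It separated in the other direction (−0.47, adjusted p = 0.0965).

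Markers of cell types moved with genotype beside these genes. Of all clusters, 0.490% were called lower and 0.336% higher, and of those with 1 symbol 1.42% were called either way. The mean of the podocyte markers, 7 of 10 measured, was 8.60 to 8.80 in the wild types and 7.88 to 8.23 in the mutants. Of the 7, 3 were called lower (Ptpro, Cdkn1c and Clic5). Proximal tubule markers, 5 of 10 called lower (Dpep1, Slc13a3, Pdzk1, Slc34a1 and Slc5a2), ran from 9.02 to 9.27 and from 8.24 to 8.66. Keg1 alone among them was higher, at 0.28. Nephron progenitor markers, 5 of 8 called higher (Eya1, Meox2, Six2, Crym and Uncx), ran from 7.43 to 7.57 and from 8.08 to 8.27. Cited1 alone among them was not higher, at −0.02. Endothelial markers ran from 8.93 to 9.13 and from 8.58 to 8.63, with Ehd3 called lower of 10 and Kdr next at −0.61 (adjusted p = 0.0530). Leukocyte markers, 7 of 8 measured and none called, ran from 6.76 to 6.93 and from 6.53 to 6.63. Cd53 at −0.43 and Csf1r at −0.44 were the members of smallest p, and Cd3e alone was higher, at 0.09. Mesangial and pericyte markers, 7 of 8 measured and none called, ran from 9.04 to 9.26 and from 8.91 to 9.03. Of the 7, 4 were lower, with Itga8 at −0.45 and Gata3 at −0.43 of smallest p. The other 3, Acta2, Cspg4 and Rgs5, were higher, at 0.05, 0.08 and 0.06. In these 6 lists the wild-type and mutant ranges did not overlap, narrowly in the mesangial list. Loop, distal tubule and collecting duct markers, with Hsd11b2 called higher of 8 and Umod next at −0.41, ran from 9.21 to 9.43 and from 9.16 to 9.46. Erythroid markers, 4 of 8 measured and none called, ran from 6.60 to 6.82 and from 6.39 to 6.69, with Slc4a1 and Klf1 both at −0.24. In these last lists the ranges overlapped. The part of cell composition in the members' differences was not tested.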

How the data were processed

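RNA of glomeruli from 4 wild-type and 4 mutant embryos was hybridised to Affymetrix exon arrays. The authors deposited log2 values made with RMA in Partek on mm9, per the submitters' processing notes, and their versions are not stated. The values run as log2 values do, and that base is an inference. RMA compresses differences of dim probes. Arrays have no read depth, so their number limits the precision. Symbols came from the platform annotation, updated through RefSeq, and clusters without exactly 1 symbol entered the tests unnamed.

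Mutant minus wild type was fitted by lmFit and eBayes (limma 3.58.1, R 4.3.3; two-sided) on every row of a table, with Benjamini-Hochberg adjustment over that table. Rows with an adjusted p under 0.05 are said to be called. A difference of limma is given with its SE. No filter, scaling or covariate was applied. For the exon-level table, single probe sets and their mean per gene were fitted likewise. The p-values set the difference between the genotypes against the spread among arrays of the same genotype, as eBayes moderates it over all rows. The chromosome of a cluster was read from the 5 named clusters on each side of it in the design.

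The members and lists were chosen with earlier results of these data known. Array values are given for each called member and the 4 members of smallest p in each role list. In companion and marker lists the called members and the 2 of smallest p are named. Replicate numbers were checked for pairing: same-number correlations of deviations were −0.0048, 0.069, 0.263 and 0.204. Wild-type replicates 3 and 4 were most like the mutant of the same number, and replicates 1 and 2 were not. The labels state no pairing, and these values neither show nor exclude it. The fits were tested on simulated data. Alternatives were another normalization, blocks, weights, filters, other clusters of a gene, probe sets and leaving out each array.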

Additional observations from a re-analysis of the deposited data

Results flagged for a closer look

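Each genotype's 4 values of the 33 members were checked for an array far from the other 3, by the gap to its nearest neighbour as a share of the group's range. Of 66 groups, 3 passed the critical value, and chance alone passes about 1 in 20. In the wild types Pgk1 had a ratio of 0.929, with replicate 4 at 6.38 and the others at 6.52 to 6.53. Without that array the difference was −0.71 and the adjusted p 0.0530. In the mutants Pgk1 had a ratio of 0.892, with replicate 3 at 6.09 and the others at 5.71 to 5.75. Without it the difference was −0.76 and the adjusted p 0.0474. Ankrd37 had a ratio of 0.89 in the wild types, with replicate 4 at 6.11 and the others at 6.32 to 6.35. Without that array the difference was −0.39 and the adjusted p 0.155.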

How the results depend on the processing

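The number of clusters called, 774 as reported, was 185 with the replicate number as a block, 258 with the code letter as a random block (correlation 0.174), 1311 with array weights, 1199 without dim clusters, 1408 among clusters with 1 symbol alone and 2102 by the mean of probe sets. Leaving out the arrays of lone letters, an alternative chosen after seeing the data, gave 368, and leaving out each array gave 268 to 758. Members called, 1 as reported, numbered 0 with either block, after a further quantile normalization, after median centring, with the mean of all clusters of a symbol and without the lone letters, 4 among clusters with 1 symbol (Pgk1, Pgam1, Adm and Ankrd37; 1408 of 20707 clusters were called there), 4 by probe sets (beside 11.4% of all genes) and 0 to 1 with an array left out. Pgk1 had an adjusted p of 0.0969 with the replicate block and of 0.244 with the mean of its clusters. Whether the replicate numbers pair the embryos is not known, and the block changed no other member's call. The enzymes' median ran from −0.15 to −0.036 and the other targets' from −0.21 to −0.074 with an array left out. By the mean of probe sets the medians were −0.11 for the enzymes and −0.045 for the other targets. Of the 33 members, 25 kept their sign in each of the up to 20 alternatives that gave them a value, and 8 did not (Hk1, Tpi1, Pkm, Slc2a3, Pfkfb4, Egln1, Car9 and Ddit4). The cause of these moves was not tested, beyond the smaller number of tests or arrays. With 4 arrays per genotype and compressed dim signals, small changes of single genes are not detectable.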
